A study of Mus musculus with 8 samples.

Results

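The genes described here are 9 transcription factors of the endoderm and foregut, *Foxa1*, *Foxa2*, *Gata4*, *Gata6*, *Hnf4a*, *Sox2*, *Sox9*, *Isl1* and *Tbx1*. They were chosen by name, as the rows of the deposited table that carry these symbols in capital letters, and all 9 were found among its 16119 genes. All 9 also passed the filter on low values (a minimum of 10 normalized counts in 2 libraries), as did 14703 genes of the table. Messenger RNA of 8 mouse libraries was sequenced to compare thyroid follicular cell organoids (TFCOs) with thyroid tissue, and lung tissue served as an unrelated control. TFCOs are cystic cultures grown from dissociated adult thyroid in basement membrane extract. All mice were wild type C57BL/6. Organoids of 2 lines, mThy14 and mThy16, were taken at early and at late passage, so that both passage groups come from the same pair of lines, and a line is the cells of 1 mouse thyroid. All TFCOs were kept in one expansion medium, with R-spondin 3, the TGFβ inhibitor A83-01, forskolin, EGF and FGF10. No other treatment was given, and TFCOs of 2 lines stand for no more than 2 animals. The tissues were 2 thyroid and 2 lung samples, taken whole and therefore holding several cell types. The age of the mice is not given in the sources used here.

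The thyroid, the lungs, the parathyroid glands and the thymus all bud from the anterior part of the gut tube, the foregut. FoxA proteins are pioneer factors that open chromatin across the endoderm, GATA4, GATA6 and HNF4A act mainly in its liver, gut and lung derivatives, and SOX2 and SOX9 mark proximal and distal parts of the growing airway tree. TBX1 and ISL1 act in the pharyngeal region next to the thyroid bud, and ISL1 also acts in endocrine cells and motor neurons. Which of these factors adult follicular cells keep in culture is the question that the 8 libraries address.

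Between 9755081 and 16904865 reads per library fell on genes, as worked out from the step between values in each column. The libraries fell into 2 sets that did not follow their groups. One set held the 4 TFCO libraries and thyroid tissue 1, the other thyroid tissue 2 and both lungs: 44 genes had 50 or more normalized counts throughout the first set and 0 throughout the second, and 16 the reverse. Thyroid tissue 1 was therefore the only tissue in the set of the TFCOs, and thyroid tissue 2 the only one in the set of the lungs. In comparisons of TFCOs with lung, tissue and library set cannot be told apart. Summed markers of thyroid follicular cells (8 genes, *Tg* among them) ranged from 16416 to 150412 normalized counts in TFCOs, from 1548374 to 2227699 in thyroid tissue and from 273 to 360 in lung. *Tg* made up most of the first 2 ranges, at 9532 to 126441 in TFCOs and 1526002 and 2175016 in thyroid tissue. Of the 8 genes, 6 were lower in TFCOs than in thyroid tissue and 2, *Tshr* and *Slc26a4*, were higher. Summed markers of alveolar type 2 cells (8 genes, *Sftpc* among them) ranged from 298381 to 445899 in lung and from 12197 to 60941 in TFCOs. The labelled tissues thus held their defining markers.

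The most abundant of the 9 factors in TFCOs and in thyroid tissue was *Sox9*, with 2343 or more normalized counts in each of these libraries and 10.1 or fewer in lung. *Gata6* and *Sox2* were higher in both lungs than in every other library. *Foxa1*, *Foxa2* and *Tbx1* also had their highest group mean in lung, but their lung levels overlapped those of TFCOs or thyroid tissue. *Isl1* belonged to whole thyroid tissue and was low in 3 of 4 TFCO libraries, and *Foxa1* and *Foxa2* were higher in TFCO line mThy16 than in mThy14. *Hnf4a* was low in every library, and *Gata4* was low in thyroid tissue and held 26.8 to 84.3 normalized counts in TFCOs. The plot of each member by library shows these patterns.

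**Figure D1:**
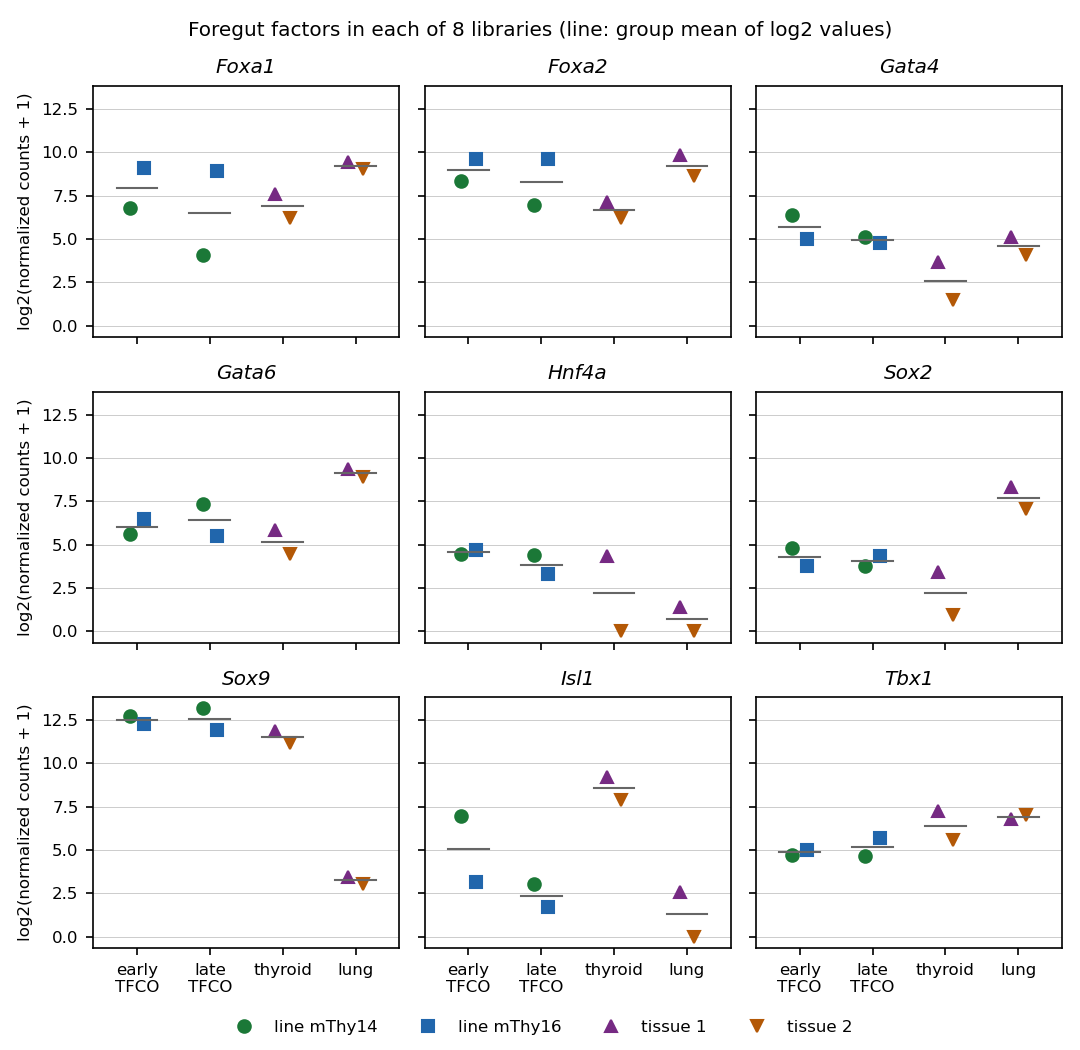
Level of each of the 9 factors in each of 8 libraries, as log2(normalized counts + 1), with 1 panel per gene, groups on the x axis, marker shape for the TFCO line or tissue number, and a line at the group mean. *Sox9* lies between 2343 and 9208 normalized counts in the 6 TFCO and thyroid libraries and at 10.1 or less in lung, and the 2 TFCO lines stand apart for *Foxa1* and *Foxa2*.

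Values between genes were compared per kilobase of exon sequence (GENCODE M21), which holds if reads cover whole transcripts. In TFCOs *Sox9* came first, with a mean of 1496 normalized counts per kilobase (947 to 2227 over 4 libraries), followed by *Foxa2* with 213 (52.3 to 338) and *Foxa1* with 88.0 (4.69 to 165). *Gata6*, *Gata4*, *Tbx1*, *Isl1* and *Sox2* followed with means between 8.64 and 13.1 and ranges that overlapped. *Hnf4a* came last with 3.86 (1.85 to 5.13), a range that overlapped only those of *Isl1* and *Foxa1*. In thyroid tissue *Sox9* again led with 744 per kilobase (567 to 921), and *Isl1* came next with 105 (60.1 to 151). In lung the order was led by *Foxa2* with 276 per kilobase (167 to 385) and *Foxa1* with 183 (158 to 209), whose ranges overlapped, and *Sox9* stood seventh with 2.11. The labels name a CEL-Seq protocol, and the methods a stranded mRNA kit with reads across the transcript. Which of the 2 was used was not settled here, and a 3' tag would not scale with length. The annotation used for counting is not given in the sources used here, so these lengths, and the gene overlaps given below, may differ from those behind the counts.

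Counting a factor as detected in a group when every library of it held 10 or more normalized counts, TFCOs held 7 of the 9 factors (70.6% of all listed genes met this in TFCOs), thyroid tissue 6 (73.8% of all genes) and lung 6 (77.3%). *Foxa1*, *Foxa2*, *Gata6* and *Tbx1* were detected in all 3, as were 62.9% of all genes. *Sox9* was detected in TFCOs and thyroid but not lung, a pattern of 2.02% of all genes. *Gata4* and *Sox2* were detected in TFCOs and lung but not thyroid, a pattern of 1.65% of all genes. *Isl1* was detected only in thyroid (1.92% of all genes), and *Hnf4a* in none of the 3 groups (14.8%). At a minimum of 5, *Sox9* joined the 4 factors present in all 3 groups and *Hnf4a* was detected in TFCOs alone. At a minimum of 20, *Gata4* was left in TFCOs alone and *Sox2* in lung alone, and *Foxa1* dropped out of TFCOs through late mThy14 (15.6), which left 5 factors in TFCOs and 3 shared by all groups. The pattern of *Gata4* and *Sox2* therefore rested on levels near the minimum, and thyroid tissue 2, with 1.84 and 0.922 normalized counts of the 2 genes, was the library that set it most. A further value bears on such low levels: of 1027 genes at 0 throughout the second library set, 31.7% to 39.4% were at 10 or more in each of the 4 TFCO libraries and thyroid tissue 1.

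Each difference was tested with limma on log2(normalized counts + 1), with Benjamini-Hochberg adjustment over 14703 genes. The early and late values of a TFCO line were averaged, so that 2 lines were set against 2 tissues. The p-values measure only the spread between these samples, and the smallest two-sided p of an exact permutation test with 2 values a side is 0.333. None of the 9 factors passed an adjusted p of 0.05 between TFCOs and thyroid tissue, where 3.65% of all genes tested did (0.599% higher and 3.05% lower in TFCOs). Between TFCOs and lung 2 of the 9 passed, against 23.4% of all genes, *Sox9* higher (as 9.83% of genes) and *Gata6* lower (13.5%). Between thyroid and lung 4 of the 9 passed, against 6.05% of all genes, *Sox9* and *Isl1* higher (2.89% of genes) and *Gata6* and *Sox2* lower (3.16%). The median log2 difference of the 9 was 1.08, -0.59 and -2.02 in these comparisons, beside 0.05, 0.05 and 0.03 over all genes tested. The first and second comparison share the TFCOs, and the others share a tissue, so the 3 sets of values are not independent.

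**Figure D2:**
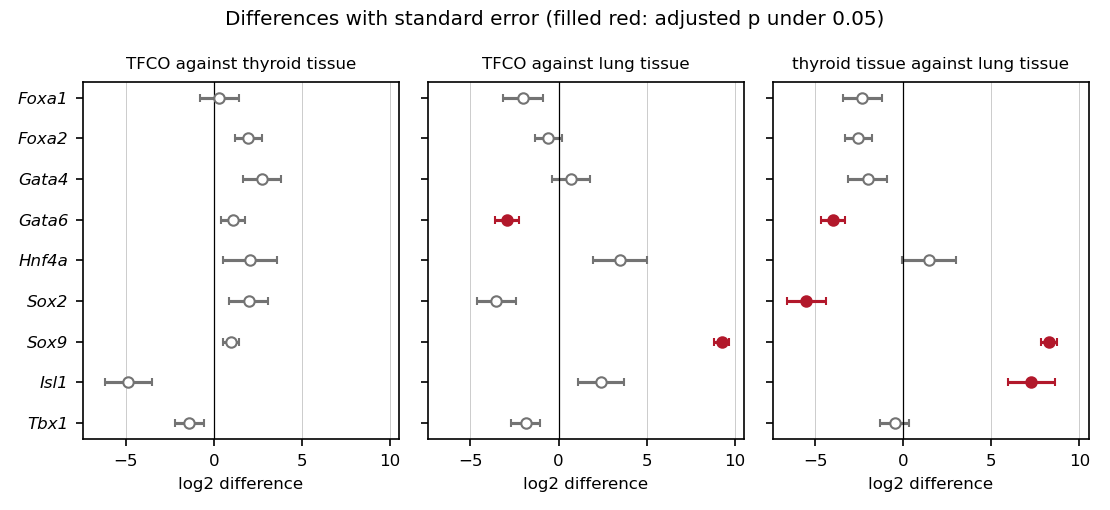
Log2 difference of each factor, with its standard error, in the 3 comparisons (x axis, log2 scale; filled red points have a limma adjusted p under 0.05 over all genes). No point is filled against thyroid tissue, *Gata6* and *Sox9* are filled for TFCOs against lung, and *Gata6*, *Sox2*, *Sox9* and *Isl1* for thyroid against lung.

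*Sox9* encodes an HMG-box factor of cartilage, hair follicle, pancreatic duct and distal lung progenitors. It lies on chromosome 11 from 112782224 to 112787760 of GRCm38, plus strand (the annotation GENCODE M21 gave all gene positions, since the table carries none). Line mThy14 held 6769 normalized counts early and 9208 late, and line mThy16 held 4854 and 3917. Thyroid tissues 1 and 2 held 3807 and 2343, and lung tissues 1 and 2 held 10.1 and 7.41. All 4 TFCO libraries exceeded both thyroid tissues, as they did for 17.2% of genes tested, but the highest thyroid value and the lowest TFCO value were close. Every TFCO library exceeded both lung tissues, as for 34.4% of genes, and both thyroid tissues did, as for 26.2% of genes. The log2 difference was 0.97 (standard error 0.45, adjusted p = 0.303) between TFCOs and thyroid. It was 9.25 (standard error 0.45, adjusted p = 0.000217) between TFCOs and lung and 8.28 (adjusted p = 0.000655) between thyroid and lung. Both calls against lung held in 17 of 17 alternatives. Within a library set, TFCOs exceeded thyroid tissue 1 by 0.62, and thyroid tissue 2 exceeded lung by 7.93. By level, *Sox9* ranked at percentile 95.2 to 98.8 of listed genes in TFCOs and thyroid and at percentile 19.9 to 21.3 in lung. The 3 genes whose pattern over the 8 libraries was most like it, of 13103 genes compared, were *Fstl4*, *Wnk2* and *Pax8*, each with a Pearson r of 0.99. *Pax8*, the paired-box factor that defines the thyroid follicular lineage, held 3925 to 8300 normalized counts in TFCOs and thyroid and was listed at 0 in both lung tissues. A like pattern here rests largely on the split between 2 lung libraries and the other 6. *Sox9* also marks cartilage: 8 cartilage genes summed to 446 to 1106 normalized counts in TFCOs, 311 to 674 in thyroid tissue and 35.2 to 82.9 in lung. Their part in the *Sox9* difference was not tested.

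*Foxa1* and *Foxa2* encode forkhead proteins that bind compacted chromatin, and both are required for the development of lung epithelium. *Foxa1* lies on chromosome 12 from 57540628 to 57546916 and *Foxa2* on chromosome 2 from 148042877 to 148046969, both on the minus strand of GRCm38. Bases just upstream of a RefSeq start site of each are printed below, since the 2 genes had like patterns over the TFCO libraries. A stretch of *Sox2* is given for contrast. They end at RefSeq start sites of build GRCm38.p6, which for *Foxa1* and *Sox2* differ from the ends of the GENCODE genes, and are written in 5′ to 3′ direction on the gene's strand. The *Foxa1* stretch is chr12:57546122-57546361 (minus strand, 240 bases, without 10 bases next to the start site that the annotation counts as exon). All of it lies inside the GENCODE gene, whose 5′ end is at 57546916, so it is not upstream of that gene. The *Foxa2* stretch is chr2:148046970-148047219 (minus strand, 250 bases) and the *Sox2* stretch chr3:34649745-34649994 (plus strand, 250 bases). Capitals mark matches, on either strand, to the forkhead core TGTTTAC and the CCAAT box CCAAT.
Foxa1: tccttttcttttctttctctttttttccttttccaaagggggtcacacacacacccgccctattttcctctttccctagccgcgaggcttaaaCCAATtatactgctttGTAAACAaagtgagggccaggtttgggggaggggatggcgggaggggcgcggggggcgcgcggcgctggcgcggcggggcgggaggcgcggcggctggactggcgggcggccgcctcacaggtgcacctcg
Foxa2: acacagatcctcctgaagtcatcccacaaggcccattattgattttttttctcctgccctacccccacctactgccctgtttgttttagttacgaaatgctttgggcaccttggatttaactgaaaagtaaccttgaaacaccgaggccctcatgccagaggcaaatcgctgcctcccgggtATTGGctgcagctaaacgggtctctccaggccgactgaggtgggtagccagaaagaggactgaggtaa
Sox2: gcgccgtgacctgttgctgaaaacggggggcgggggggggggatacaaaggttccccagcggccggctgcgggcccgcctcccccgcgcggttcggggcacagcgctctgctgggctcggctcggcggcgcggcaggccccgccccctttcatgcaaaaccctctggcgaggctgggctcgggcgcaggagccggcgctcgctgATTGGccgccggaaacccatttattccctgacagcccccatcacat
The *Foxa1* stretch holds 1 forkhead core, on the strand opposite to the letters searched, a motif found in 3.17% of 32851 windows of the mouse genome. Each of the 3 stretches holds 1 CCAAT box, found in 33.8% of windows, and its *Foxa2* and *Sox2* copies lie on the opposite strand. No NKX2-1 core (CAAGTG, 11.6% of windows), GATA core (AGATAA, 9.99%), SOX core (ACAATG, 10.7%) or TATA box (TATAAA, 12.4%) was in any of the 3 on either strand. *Foxa2* has 2 further RefSeq start sites that are not shown, and the window of one of them holds 1 GATA core and 1 TATA box. The motifs marked do not overlap one another. A match describes letters only. Windows were found for 6 of the 9 members.

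For *Foxa1*, line mThy14 held 111 normalized counts early and 15.6 late, and line mThy16 held 551 and 494. Thyroid tissues 1 and 2 held 196 and 72.8, and lung tissues 1 and 2 held 695 and 525. Both mThy16 libraries came within reach of lung, while late mThy14 lay below every other library. The ranges of TFCOs and thyroid overlapped, as did those of TFCOs and lung, whereas thyroid lay below lung in each library, as 27.5% of genes tested did. The log2 difference was 0.32 between TFCOs and thyroid (standard error 1.12, adjusted p = 0.888), and without early mThy14 it was -0.37. It was -2.01 between TFCOs and lung (standard error 1.12, adjusted p = 0.199) and -2.33 between thyroid and lung (adjusted p = 0.272). Within a library set, TFCOs lay 0.39 below thyroid tissue 1 (log2 difference -0.39), and thyroid tissue 2 differed from lung by -3.04.

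For *Foxa2*, mThy14 held 326 normalized counts early and 124 late, mThy16 held 800 and 771, thyroid tissue 142 and 71.9, and lung 911 and 396 (tissues always in the order 1 and 2). Early mThy14 and both mThy16 libraries exceeded both thyroid tissues, and late mThy14 lay between them. The log2 difference was 1.97 between TFCOs and thyroid (standard error 0.77, adjusted p = 0.235) and -0.59 between TFCOs and lung (standard error 0.77, adjusted p = 0.569; 0.0049 without lung tissue 1). It was -2.56 between thyroid and lung (standard error 0.77, adjusted p = 0.101), which passed with the tissue number as a replicate block (adjusted p = 0.0149). Within a library set, TFCOs exceeded thyroid tissue 1 by 1.48, and thyroid tissue 2 differed from lung by -3.05.

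Over the 8 libraries *Foxa1* and *Foxa2* had a Pearson r of 0.81, as a description over libraries that share lines and library sets. In line mThy16 both exceeded line mThy14, by 2.30 for *Foxa1* and 1.29 for *Foxa2* on the log2 scale at early passage and by 4.90 and 2.63 at late passage. A line difference over 1 at both passages was met by these 2 members and by 7.96% of all genes tested. Late minus early, the *Foxa1* difference was -2.75 in mThy14 and -0.16 in mThy16, and that of *Foxa2* -1.39 and -0.05. The scatter of the 2 genes places mThy16 beside lung and late mThy14 lowest for *Foxa1*. Each line and passage is 1 library, so these line differences carry no test. The genes most like *Foxa1* in pattern were *Arap1* (r of 0.99), *Dusp1* (0.98) and *Bex2* (0.98). Those most like *Foxa2* were *Dcxr* (0.98), *Ddhd1* (0.97) and *Ttll9* (0.96). *Bex2* followed the same course with 57.6 (early) and 5.20 (late) normalized counts in mThy14, 557 and 499 in mThy16, 100.2 and 86.7 in thyroid, and 527 and 403 in lung. Summed squamous epithelial markers (7 of 8 listed) also stood higher in mThy16, at 6799 and 6879 normalized counts, than in mThy14, at 1695 and 2140. These sums were 2202 and 36.9 in thyroid tissue and 22.6 and 15.5 in lung, low throughout the second library set. Of this list, *Ivl* was lower in mThy16 (9.90 and 11.2 against 50.6 and 23.9), and *Dsg3* was higher early and lower late. *Foxj1*, the factor of multiciliated cells, was also higher in mThy16, at 6122 and 6016 against 35.1 and 442. *Foxj1* made up nearly all of the summed airway secretory and ciliated cell markers in mThy16 (6350 and 6207 normalized counts, against 254 and 514 in mThy14). Other genes of that list went in different directions. *Tppp3* was also higher in mThy16, at 162 and 107 against 61.8 and 26.0. *Ccdc153* and *Scgb1a1* were lower in mThy16 at both passages, and *Tekt1* was lower early and higher late. *Ccdc153* held 1.98 and 7.8 in mThy16, and 740 and 618 in lung. Whether mThy16 held multiciliated cells was not tested. The part of squamous or airway cells in the *Foxa1* and *Foxa2* levels was not tested either. In bulk RNA, fewer cells of a type and less RNA per cell cannot be told apart.

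**Figure D3:**
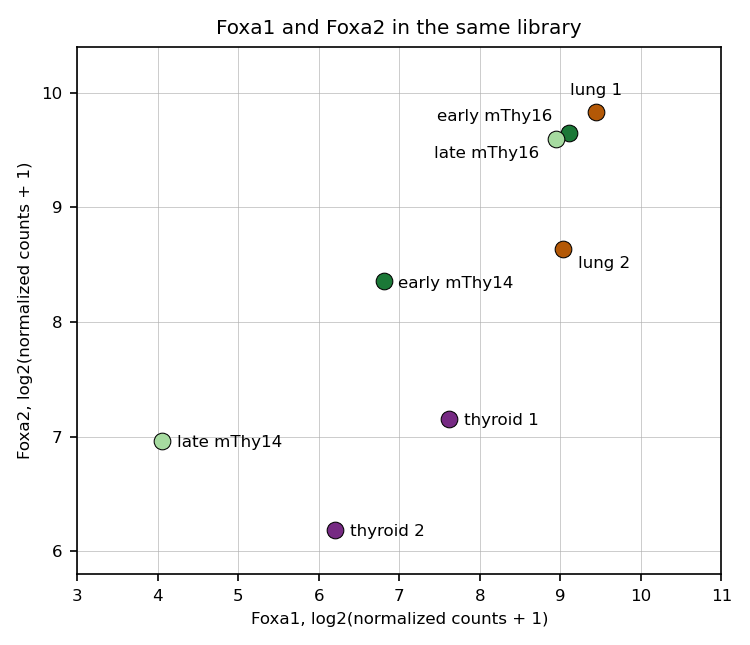
*Foxa1* (x axis) against *Foxa2* (y axis) in the same library, both as log2(normalized counts + 1), with 1 labelled point per library coloured by group. Both mThy16 points lie beside the lung points, and the early and late mThy14 points are apart, with *Foxa1* at 111 and 15.6 normalized counts.

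*Gata6* and *Gata4* encode zinc-finger factors of endoderm and heart, and *Gata6* is expressed in alveolar epithelium and in vascular smooth muscle. *Gata6* lies on chromosome 18 from 11052064 to 11085635 (plus strand) and overlaps a transcript on the opposite strand, *1010001N08Rik*, whose reads could not be told apart if counting ignored strand. Line mThy14 held 47.8 normalized counts early and 161 late, mThy16 held 88.1 and 43.6, thyroid tissue 55.5 and 21.2, and lung 666 and 470. Lung exceeded all 6 other libraries, and TFCOs and thyroid overlapped. *Gata6* was lower in TFCOs than in lung, with a log2 difference of -2.90 (standard error 0.68, adjusted p = 0.0286). This call was lost without early mThy14 (adjusted p = 0.0564), lung tissue 1 (0.213) or lung tissue 2 (0.168). It was lower in thyroid than in lung by a log2 difference of -3.98 (adjusted p = 0.0226), lost without lung tissue 1 (adjusted p = 0.256) or 2 (0.212). Against thyroid, TFCOs differed by 1.08 (standard error 0.68, adjusted p = 0.405). Within a library set, TFCOs exceeded thyroid tissue 1 by 0.41, and thyroid tissue 2 differed from lung by -4.66. Summed cardiac muscle markers, the muscle of pulmonary veins, were 6760 and 11499 normalized counts in lung, 4420 and 243 in thyroid tissues 1 and 2, and 1013 to 1454 in TFCOs. Summed smooth muscle markers (6 genes) were 2840 and 8370 in lung, 8787 and 1530 in thyroid tissues 1 and 2, and 4563 to 6460 in TFCOs. *Actg2* made up most of the TFCO sums, at 3074 to 3962 in TFCOs against 84.6 and 390 in lung. Of the 6 genes, 2 were higher in TFCOs than in lung and 4 lower. *Tagln* was among the lower ones, at 26.0 to 59.0 in TFCOs and 1248 and 3001 in lung. The part of either kind of muscle in the *Gata6* difference was not tested. Most like *Gata6* in pattern were *Irx1*, *Dynlrb2* and *Epha3* (r of 0.97 each).

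*Gata4* lies on chromosome 14 from 63198922 to 63271692 (minus strand). Line mThy14 held 84.3 normalized counts early and 33.3 late, mThy16 held 31.7 and 26.8, thyroid tissue 12.0 and 1.84, and lung 34.3 and 16.2. All 4 TFCO libraries exceeded both thyroid tissues and overlapped lung. The log2 difference between TFCOs and thyroid was 2.73 (standard error 1.09, adjusted p = 0.244), and 3.83 without thyroid tissue 1, which leaves 1 thyroid library. Within the library set, against thyroid tissue 1, it was 1.64. TFCOs held 148 reads in all and thyroid tissue 2 held 2 reads, a ratio of normalized levels of 22.4 with a 95% counting interval of 6.10 to 187. Between TFCOs and lung it was 0.71 (standard error 1.09, adjusted p = 0.633), and between thyroid and lung -2.02 (adjusted p = 0.324). Within the library set, thyroid tissue 2 differed from lung by -3.12. Most like it in pattern were *Plk5* (r of 0.97), *Pgs1* (0.96) and *Mfsd5* (0.96).

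*Hnf4a* encodes a nuclear receptor that drives hepatocyte and gut epithelial genes. It lies on chromosome 2 from 163506808 to 163572910 (plus strand), with the antisense gene *Hnf4aos* in the same region. Line mThy14 held 21.1 normalized counts early and 19.8 late, mThy16 held 24.8 and 8.94, thyroid tissue 19.6 and 0, and lung 1.68 and 0. The 5 libraries of one set were near or above 10 and the 3 of the other set were at 0 to 2 reads, so that the levels followed the library sets. TFCOs held 8 to 25 reads each. Over lung the ratio was 25.1 (95% counting interval 6.68 to 211, from 67 against 2 reads). In log2 terms TFCOs exceeded lung by 3.50 (standard error 1.53, adjusted p = 0.120). This passed only without thyroid tissue 1 or 2, which leaves the difference unchanged and takes the spread between the thyroid tissues out of the fit. Against thyroid tissue the difference was 2.03 (standard error 1.53, adjusted p = 0.476), and it was -0.15 against thyroid tissue 1 alone and 4.21 without that tissue. Thyroid and lung differed by 1.47 (standard error 1.53, adjusted p = 0.581), by -0.71 with thyroid tissue 2 alone, and by 3.65 without thyroid tissue 2.

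*Sox2* encodes an HMG-box factor of the proximal airway and oesophagus. It lies on chromosome 3 from 34650405 to 34652461 (plus strand), inside the longer transcript *Sox2ot* of the same strand, and reads of the 2 could be split between them by the counting. Line mThy14 held 26.7 normalized counts early and 12.5 late, mThy16 held 12.9 and 19.0, thyroid tissue 9.80 and 0.922, and lung 322 and 131. Lung exceeded every other library, and TFCOs exceeded both thyroid tissues at 12 to 19 reads a library. *Sox2* was lower in thyroid than in lung, with a log2 difference of -5.50 (standard error 1.10, adjusted p = 0.0349). The call was lost without lung tissue 1 (adjusted p = 0.318) or lung tissue 2 (0.222) and with voom on the reads (0.0605). Between TFCOs and lung the difference was -3.52 (standard error 1.10, adjusted p = 0.0566). It passed in 5 of 17 alternatives, among them separate TFCO libraries (adjusted p = 0.0234), a pseudocount of 5 (0.0307) and voom (0.0387). The others left out thyroid tissue 1 or 2, which leaves this difference unchanged and takes the spread between the thyroid tissues out of the fit. Between TFCOs and thyroid the difference was 1.98 (standard error 1.10, adjusted p = 0.365), and 3.22 without thyroid tissue 1, which leaves 1 thyroid library. Within a library set, TFCOs exceeded thyroid tissue 1 by 0.73, and thyroid tissue 2 differed from lung by -6.75. The 61 reads of TFCOs stood against 1 read in thyroid tissue 2, a ratio of 18.5 with a 95% counting interval of 3.20 to 742. *Gata6* and *Sox2* had a Pearson r of 0.89 over the 8 libraries. Most like *Sox2* in pattern were *Wnt3a* (r of 0.99), *Mcemp1* (0.98) and *Cd22* (0.98), all highest in lung.

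*Isl1* encodes a LIM-homeodomain factor of pharyngeal mesoderm, motor neurons and endocrine cells. It lies on chromosome 13 from 116298281 to 116309689 (minus strand). Thyroid tissue held 597 and 238 normalized counts, mThy14 held 122 early and 7.29 late, mThy16 held 7.92 and 2.24, and lung 5.03 and 0. Thyroid tissue exceeded every other library (TFCOs lay below thyroid for 17.3% of genes), early mThy14 stood between, and the other 3 TFCO libraries lay in the range of a few reads. The log2 difference between TFCOs and thyroid was -4.85 (standard error 1.32, adjusted p = 0.108), and it passed without early mThy14 (-5.82, adjusted p = 0.0487). Within the library set, against thyroid tissue 1, it was -5.51. *Isl1* was higher in thyroid than in lung by 7.27 (standard error 1.32, adjusted p = 0.0270), a call lost without thyroid tissue 1 (adjusted p = 0.0790), lung tissue 1 (0.125) or lung tissue 2 (0.220) and with voom (0.0684). Thyroid held 806 reads against 6 in lung, a ratio of 180 (95% counting interval 82.1 to 491), and within the library set the log2 difference was 6.60. Between TFCOs and lung it was 2.42 (standard error 1.32, adjusted p = 0.193).

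Markers of other endocrine cells moved with *Isl1* over the tissues. C cells are the calcitonin-producing neighbours of the follicles. Of 12 C cell markers, 11 were detected in both thyroid tissues, with summed levels of 50508 and 78447 normalized counts, against 137 to 217 in TFCOs and 246 to 255 in lung. Their defining gene *Calca*, which encodes calcitonin, held 19984 and 36502 in thyroid and between 0 and 9.37 in TFCOs. Summed parathyroid markers (7 genes) were 30384 and 57019 in thyroid, 1159 to 2333 in TFCOs and 2324 to 3943 in lung. Summed skeletal muscle markers (8 genes) were 48664 and 142079 in thyroid and 1491 to 3411 in the other libraries. Among the thyroid tissues the order was opposite, since *Isl1* was higher in tissue 1 and all 3 sums were higher in tissue 2. Early mThy14, which kept 122 normalized counts of *Isl1*, had C cell markers at 207, a level within that of the other TFCOs. The part of these cells in the *Isl1* level of thyroid tissue was not tested. Most like *Isl1* in pattern were *Sv2a* (r of 0.99), *Suox* (0.96) and *Sec61b* (0.95).

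**Figure D4:**
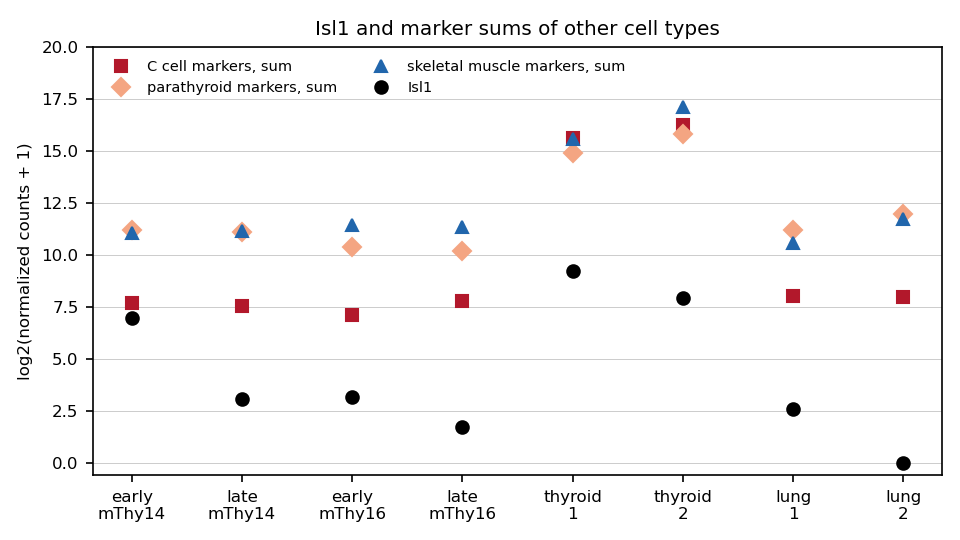
*Isl1* and the summed normalized counts of C cell, parathyroid and skeletal muscle markers in each of 8 libraries (y axis, log2(normalized counts + 1)). All 4 measures are highest in the 2 thyroid tissues, and *Isl1* alone stands out in early mThy14, at 122 normalized counts.

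*Tbx1* encodes a T-box factor of the pharyngeal pouches and arches, whose loss in mice impairs thyroid and thymus development. It lies on chromosome 16 from 18580979 to 18590671 (minus strand). Line mThy14 held 25.3 normalized counts early and 23.9 late, mThy16 held 31.7 and 50.3, thyroid tissue 150.2 and 46.1, and lung 109 and 127. All TFCO libraries were below both lung tissues, as 33.3% of genes tested were, and late mThy16 lay above thyroid tissue 2. The log2 difference between TFCOs and thyroid was -1.38 (standard error 0.81, adjusted p = 0.381), and -2.22 against thyroid tissue 1 alone. Between TFCOs and lung it was -1.87 (standard error 0.81, adjusted p = 0.117). This passed only without thyroid tissue 1 or 2, which leaves the difference unchanged and takes the spread between the thyroid tissues out of the fit. Thyroid and lung differed by -0.49 (standard error 0.81, adjusted p = 0.734), with the sign turned by leaving out thyroid tissue 2 (0.35) or by quantile normalization (0.0081), and by -1.33 with thyroid tissue 2 alone. Most like it in pattern were *Tlcd3a*, *Rgs3* and *Clasp2* (r of 0.95 each).

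The comparison of late with early TFCOs asked whether the factors held their level over passages. None of the 9 passed the test, and neither did any of the 14703 genes with limma (0% called; 166 genes at an unadjusted p under 0.05). When a replicate block for the line was added, the count was again 0, with 202 genes at an unadjusted p under 0.05, and with voom 0 and 84. The log2 differences of the members (late minus early) ran from -2.68 for *Isl1* to 0.37 for *Gata6*, with a median of -0.72 beside -0.02 over all genes, and each had an adjusted p of 1. The 2 lines had different values. In mThy14 the difference was -3.90 for *Isl1*, -2.75 for *Foxa1*, -1.39 for *Foxa2*, -1.31 for *Gata4* and 1.73 for *Gata6*. In mThy16 *Isl1* differed by -1.46, *Hnf4a* by -1.37 and *Gata6* by -0.999, and the other 6 factors by less than 0.7. *Foxa1*, *Foxa2* and *Gata4* had values below -1 in mThy14 and within 0.5 of 0 in mThy16, as did 7.83% of genes tested. *Sox9* differed by 0.44 and -0.31. Without late mThy14, the fitted differences were 0.99 for *Foxa1*, 0.59 for *Foxa2*, -0.56 for *Gata6* and -0.55 for *Sox9*, each opposite in sign to the value with all libraries.

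Other regulators of the foregut were read from 5 lists. Of 5 thyroid lineage factors none passed between TFCOs and thyroid (median log2 difference 0.23), and 4 were higher in TFCOs than in lung (9.83% of all genes were), *Pax8*, *Foxe1*, *Hhex* and *Glis3*. Of 13 lung epithelial factors tested, 2 were higher in TFCOs than in thyroid (0.599% of all genes were) and none lower (3.05%), with a median of 0.90. These were *Etv5*, an FGF-responsive ETS factor, by 2.44 (adjusted p = 0.0189), and *Elf5*, by 3.56 (adjusted p = 0.0394). *Etv5* held 3111 to 4649 normalized counts in TFCOs, 830 and 587 in thyroid, and 2748 and 1798 in lung. Every TFCO library exceeded both thyroid tissues, as for 17.2% of genes tested, and both lungs, as for 34.4%. Against lung the *Etv5* difference was 0.77 and did not pass (limma adjusted p = 0.152). Against lung, *Etv4* and *Foxp4* were higher in TFCOs (as 9.83% of all genes were), and *Hopx* and *Foxp1* were lower (13.5%).

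Of 14 pharyngeal pouch and arch factors tested, 3 were lower in TFCOs than in thyroid (3.05% of all genes were) and none higher (0.599%), with a median of -1.52. *Gata3*, which acts in the parathyroid, differed by -4.33 (adjusted p = 0.0341), *Eya1* by -3.94 (adjusted p = 0.0389) and *Tbx3* by -3.85 (adjusted p = 0.0309). *Gata3* held 3.12 to 21.1 normalized counts in TFCOs and 324 and 117 in thyroid, where parathyroid markers were also high. Their part in it was not tested. Against lung, 3 were higher in TFCOs (9.83% of all genes were) and 3 lower (13.5%). *Pax9*, *Foxn1* and *Hoxb3* were higher, by 5.76, 6.00 and 3.50 (adjusted p = 0.00557, 0.00693 and 0.0201), and *Pax9* and *Foxn1* were also higher in thyroid than in lung. *Ripply3*, *Tbx3* and *Gata3* were lower, by log2 differences of -9.16, -3.55 and -3.44 (adjusted p = 0.00393, 0.0159 and 0.0268). Of 15 liver, pancreas and gut factors tested, *Sox17*, an early endoderm and endothelial factor, was higher in TFCOs than in thyroid by 3.73 (adjusted p = 0.0215), at 333 to 1862 normalized counts against 57.7 and 84.8. The list's median was 2.48 (0.05 over all genes). Of its 19 genes, 9 were detected in every TFCO library (70.6% of all genes), 3 in both thyroid tissues (73.8%) and 4 in both lungs (77.3%). The thyroid tissues were unequal, with 12 of these genes at 10 or more in tissue 1, which shares the library set of the TFCOs, and 3 in tissue 2. *Nkx2-2* was higher in TFCOs than in lung, at 96.1 to 1338 normalized counts against 1.68 and 0. Thyroid tissue held 299 and 268 and was also higher than lung, by 7.44 (limma adjusted p = 0.0135).

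Of 10 foregut mesenchyme factors tested, 5 were lower in TFCOs than in lung (13.5% of all genes were) and 1, *Nkx2-3*, was higher (9.83%), with a median of -3.22, and none passed against thyroid. *Foxf1* held 24.8 to 33.7 normalized counts in TFCOs, 40.3 and 83.9 in thyroid, and 2458 and 4754 in lung (log2 difference of TFCOs from lung -6.87, adjusted p = 0.00123). *Tbx4*, *Tbx5*, *Tcf21* and *Foxf2* were the others. Summed fibroblast markers (8 genes) were 204 to 399 in TFCOs and 24774 to 41376 in both tissues. The 6 list genes called against thyroid kept their sign with 2 other scalings and against thyroid tissue 1 alone, and the 22 called against lung kept theirs with both scalings. These genes were picked by passing in the same libraries, so a kept sign was likely beforehand and is no separate evidence. The plot of the lists shows the spread within each.

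**Figure D5:**
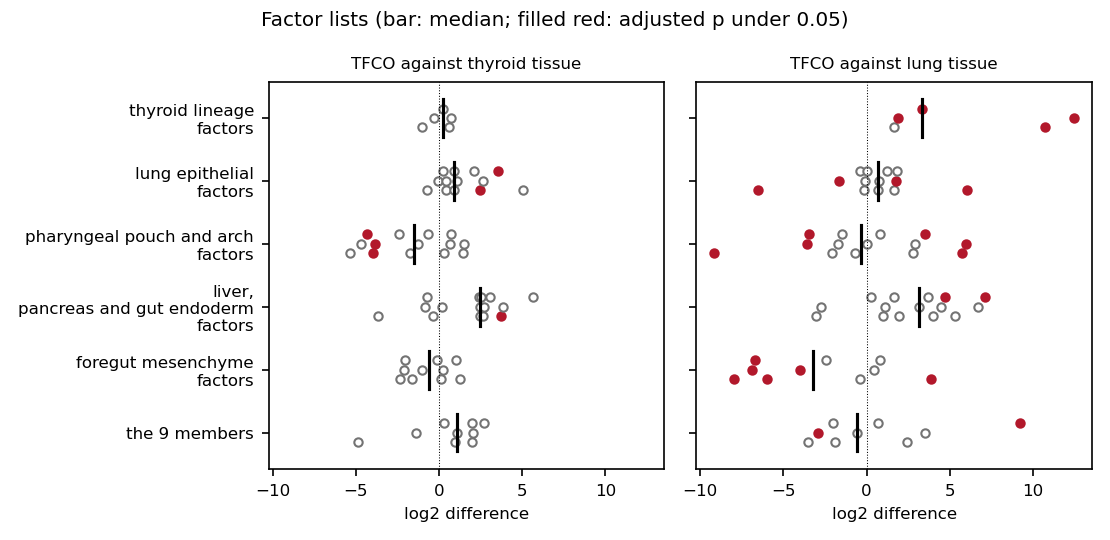
Log2 difference of TFCOs from thyroid tissue (left) and from lung tissue (right) for each tested gene of 5 factor lists and for the 9 members (x axis, log2 scale; 1 point per gene, bar at the median, filled red where the limma adjusted p over all genes is under 0.05). Thyroid lineage factors lie around 0 against thyroid, and 5 of 10 mesenchyme factors are filled on the lower side against lung.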

How the data were processed

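Messenger RNA of 8 mouse libraries was measured, 2 in each of 4 groups. The authors deposited 1 table of normalized counts, a signal obtained by dividing a gene's reads by the size factor of its library. The methods of the authors name DESeq2 for this step. The submitters' processing notes list BWA 0.6.2-r126 and the builds mm10 and hg38. All 8 columns were assigned by their titles, and 0 columns of other samples were present. Values above 0 were whole multiples of one step per library (100% within a tolerance of 0.01), which gave the reads behind each value. Counting intervals (95%) cover counting error only.

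Tests used limma (version 3.58.1, R version 4.3.3) with a trend of variance on mean. They were run on log2 of the normalized counts plus 1, for genes reaching a minimum of 10 in 2 or more libraries. The pseudocount lowers differences of weakly expressed genes. Passages of a line were averaged for comparisons with tissue, giving 6 values in 1 fit, and late against early TFCOs used all 8 libraries. Fits were tested on simulated data. Symbols of 15883 of 16119 genes matched GENCODE M21. The members and lists were chosen with earlier results of these data known. The text names all 9 members, genes of the lists that passed the test, marker genes that moved with a member, and the 3 genes with the highest Pearson r for each member with 50 or more normalized counts in a library.

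The line number pairs early and late TFCOs, which come from one thyroid (r of deviations 0.48 over genes). Tissue numbers come from titles and share only a number. Alternatives were the pseudocount, filter, scaling, trend, voom on the reads, a replicate block, separate TFCO libraries, single thyroid tissues and leaving out each library. Results of some genes of the lists are not reported here.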

Additional observations from a re-analysis of the deposited data

Results flagged for a closer look

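For 4 of the 9 factors the difference between late and early passage had opposite signs in the 2 TFCO lines, with 1 library per line and passage, so that the difference between lines was not tested. *Gata6* differed by 1.73 in mThy14 and by -0.999 in mThy16 (log2, late minus early), *Sox2* by -1.04 and 0.53, *Sox9* by 0.44 and -0.31, and *Tbx1* by -0.0766 and 0.65. The *Sox2* values rest on 12 to 19 reads a library.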

How the results depend on the processing

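*Sox9* kept its calls against lung under 17 of 17 alternatives in both comparisons. Of 622 alternative values for single factors, 569 kept their direction and their side of the threshold or moved by less than the replicate spread, 20 reversed, 15 newly passed, 12 no longer passed and 6 moved beyond the spread. Counts of genes past the threshold depended on the libraries and the fit. Between TFCOs and thyroid the count was 536, and it was 914 with the 4 TFCO libraries as separate samples, 232 with voom and 153 (without lung tissue 2) to 4085 (without thyroid tissue 1) with 1 library left out. Between TFCOs and lung it was 3435, and 5892 with separate TFCO libraries and 248 (without lung tissue 2) to 6986 (without thyroid tissue 1) with 1 library left out. Between thyroid and lung it was 889, with 58 (without either lung tissue) to 4311 (without thyroid tissue 2) with 1 library left out. Late against early it was 0, with 0 to 2 (without late mThy16). Leaving out a thyroid tissue does not change the differences between TFCOs and lung, only the spread that their test uses. The cause of the other changes was not tested. With tissue number or line as a replicate block, thyroid against lung gave 1474 calls and late against early 0; tissue numbers share only a number (r of deviations -0.07).

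Values that reversed came mostly from leaving out 1 library, and the range over left-out libraries is given for each. Between TFCOs and thyroid, *Foxa1* ran from -0.39 (without thyroid tissue 2) to 1.02, with -0.37 without early mThy14, and *Hnf4a* from -0.15 (without thyroid tissue 2) to 4.21; thyroid tissue 1 alone gave the same -0.39 and -0.15. *Foxa2* between TFCOs and lung ran from -1.19 to 0.0049 (without lung tissue 1). Between thyroid and lung, *Hnf4a* ran from -0.71 (without thyroid tissue 1) to 3.65, with -0.71 for thyroid tissue 2 alone, and *Tbx1* from -1.33 to 0.35 (without thyroid tissue 2), with 0.0081 under quantile normalization. Late against early, *Foxa1* ran from -3.90 to 0.99, *Foxa2* from -2.04 to 0.59, *Gata6* from -0.56 to 1.30, *Sox2* from -0.75 to 0.24, *Sox9* from -0.55 to 0.68 and *Tbx1* from -0.23 to 0.81, with 0.048 for *Sox2* under quantile normalization. Leaving out late mThy14 turned the sign of the first 5 of these (*Sox2* to 0.03), early mThy14 that of *Gata6* (-0.07) and *Sox2* (0.24), early mThy16 that of *Sox9* (-0.17) and late mThy16 that of *Tbx1*. Quantile normalization moved the median of all genes to 0.32 between TFCOs and lung, 0.17 between TFCOs and thyroid and 0.14 between thyroid and lung. The planned edgeR and DESeq2 fits were not run, since the table was not entered as counts. The filter at 50 left out *Hnf4a* and *Gata4*. Depth limits *Hnf4a* (8 to 25 reads in a TFCO library), *Sox2* (12 to 19), *Tbx1* (18 to 45), *Gata4* (24 to 60) and *Isl1* (2 to 87).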

Other observations

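Among regulators outside the 9 factors, 2 differed widely between TFCO libraries. They were picked with their values in view. *Foxj1* passed no test between groups and held 35.1 (early) and 442 (late) normalized counts in mThy14, 6122 and 6016 in mThy16, 30.5 and 22.1 in thyroid tissue, and 1241 and 1020 in lung. Both mThy16 libraries exceeded the lung tissues. *Nkx2-2*, a factor of neural and endocrine progenitors that passed between TFCOs and lung, held 1338 in early mThy14, where *Isl1* was also highest among TFCOs, and 96.1 to 206 in the other TFCO libraries. Thyroid tissues 1 and 2 held 299 and 268 of *Nkx2-2*.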
